A study of Mus musculus with 9 samples.

Results

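The genes described here are 10 components of the inflammasome and of the interleukin-1 family. They are the sensors Nlrp3, Mefv and Aim2, the adaptor Pycard, the protease Casp1, the pore protein Gsdmd, the cytokines Il1a, Il1b and Il18, and the receptor antagonist Il1rn. They were taken by symbol from a count table of 49315 mouse genes, and each symbol matched 1 gene. The RNA came from RAW 264.7 cells, transformed macrophages of the mouse that become osteoclast-like under the cytokine RANKL. The protocol has 24 h of growth, then RANKL at 20 ng/ml, and at 48 h in all a dose of 140 µM pamidronate. The drug was given alone or with 5.25 µM geranylgeraniol (GGOH), and harvest followed after 24 h. The 3 groups, with 3 libraries each, were a control without pamidronate or GGOH, pamidronate, and pamidronate + GGOH. There was no group with GGOH alone. The controls are labelled as untreated although RANKL stands in every sample's protocol, so whether they had it is not certain. A single cell line was used, and whether the treated libraries came from separate cultures is not stated, so the p-values measure the spread between these libraries.

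An inflammasome is a protein complex that forms in the cytosol when a sensor detects a microbe, damage or a disturbance inside the cell. The sensor recruits the adaptor ASC, the product of Pycard, which gathers procaspase-1. Active caspase-1 cuts the precursors of interleukin-1β and interleukin-18 into their secreted forms and cuts gasdermin D, whose released part forms pores in the plasma membrane. Pyrin, the product of Mefv, senses loss of activity of the small GTPase RhoA. RhoA works at membranes through a geranylgeranyl lipid, and pamidronate, a nitrogen-containing bisphosphonate, inhibits an enzyme on the path to that lipid. Cells can make that lipid from GGOH, the matching alcohol. Interleukin-1α and interleukin-1β signal through a shared receptor, and the product of Il1rn occupies that receptor without signalling. RAW 264.7 cells are known for making little or no ASC protein. All values here are RNA levels, and neither cleavage, secretion nor pore formation was measured.

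Nlrp3, Casp1, Gsdmd and Il18 RNA was highest in the control and lowest with pamidronate, and the libraries with GGOH lay between the other groups. Pycard, Il1a, Il1b and Il1rn were higher with pamidronate than in the control. With GGOH added, Il1rn was higher still, Il1a was lower than with pamidronate alone, and Pycard and Il1b showed no called difference. Aim2 moved little and Mefv was close to absent. Levels of a gene across libraries are given in CPM, which are counts scaled to library size with TMM factors. Fold changes are on the log2 scale with their standard error (SE) from edgeR's quasi-likelihood test, and a gene was called when its Benjamini-Hochberg adjusted p was under 0.05.

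**Figure D1:**
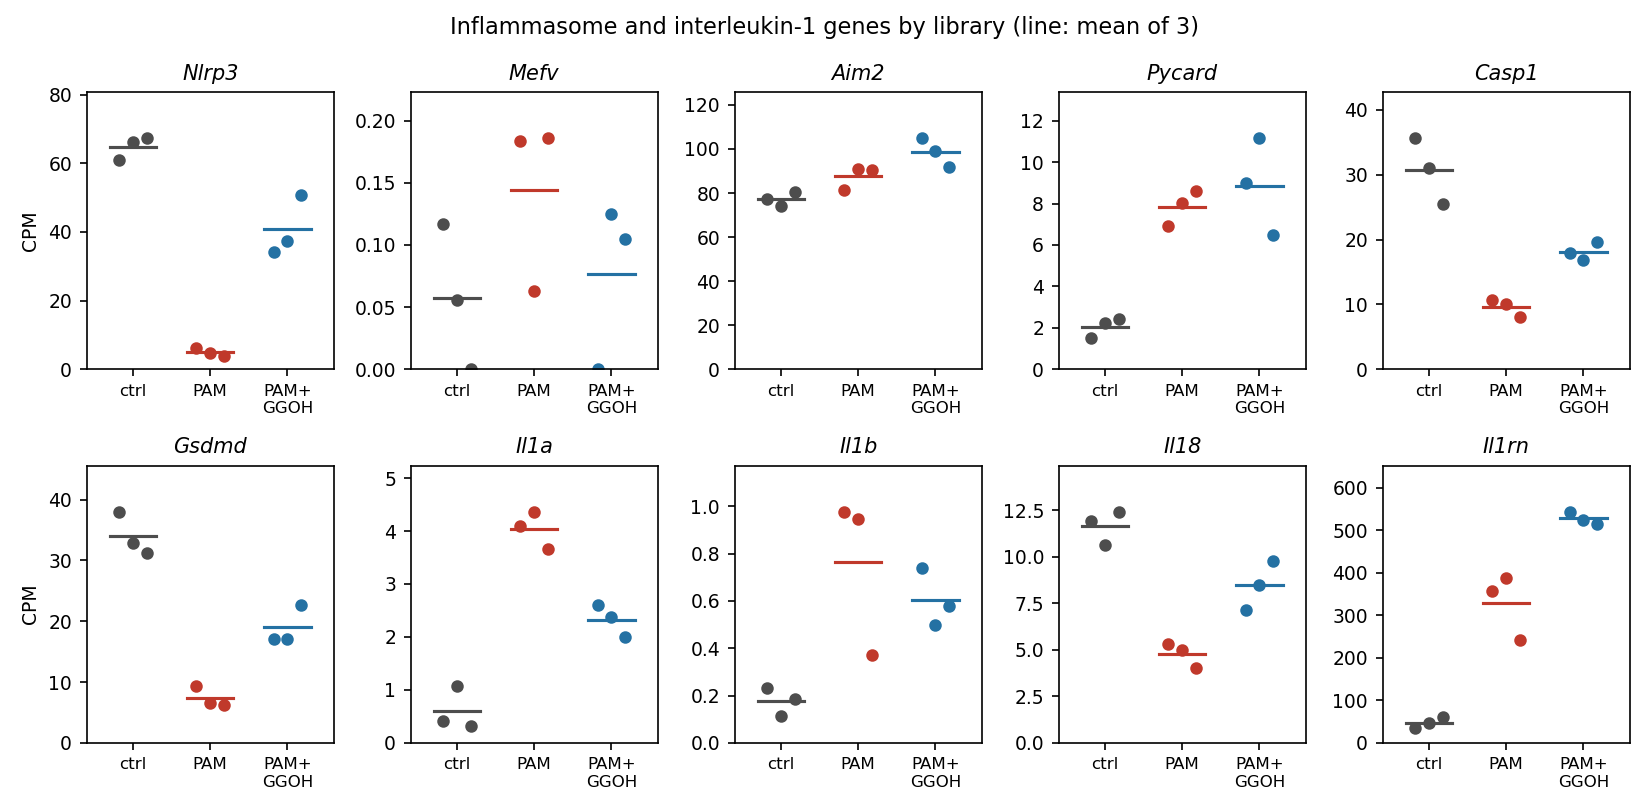
CPM of the 10 genes in each of the 9 libraries (ctrl, control; PAM, pamidronate; PAM+GGOH, pamidronate + GGOH), with a line at the mean of 3 libraries and a separate axis from 0 for each gene. Nlrp3, Casp1, Gsdmd and Il18 are lowest in the pamidronate libraries, Pycard, Il1a, Il1b and Il1rn are lowest in the control, and Mefv stays below 0.2 CPM.

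Nlrp3 encodes the sensor that responds to many kinds of damage, including loss of potassium from the cell (ENSMUSG00000032691, chromosome 11, 59541568 to 59566956, plus strand; coordinates are GRCm38 throughout). Its level was 60.9, 66.3 and 67.3 CPM in the control libraries, 6.29, 4.68 and 3.96 CPM with pamidronate and 34.2, 37.3 and 50.7 CPM with pamidronate + GGOH. No library of any group reached the range of another, and the pamidronate libraries were far below the rest. The log2 fold change of pamidronate against the control was -3.70 ± 0.18 (SE, adjusted p = 4.02e-09), which is 13.0-fold lower, and only 0.702% of all tested genes had a more negative value. With GGOH added to pamidronate, Nlrp3 rose by 3.03 ± 0.18 (SE, adjusted p = 1.10e-07), and the level stayed below the control, at -0.67 ± 0.15 (SE, adjusted p = 0.00232). Replicate 3 of the pamidronate + GGOH group was the highest of its group, 1.48 times the lowest. In bulk RNA, fewer cells with a gene and less of its RNA per cell cannot be told apart.

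Mefv encodes pyrin (ENSMUSG00000022534, chromosome 16, 3707215 to 3718124, minus strand). It had 2, 1 and 0 counts in the control libraries, 3, 1 and 3 with pamidronate and 0, 2 and 2 with pamidronate + GGOH. The groups overlap, and in each of them at least 1 library had 1 count or none. The ratio of pamidronate to control, per library count, was 2.58 with a 95% counting interval of 0.588 to 15.4, from 7 against 3 counts. The ratio of pamidronate + GGOH to pamidronate was 0.588 with an interval of 0.126 to 2.31. Mefv did not pass the filter on low counts. Without that filter its adjusted p was 0.544 for pamidronate against the control, 0.7 for pamidronate + GGOH against pamidronate and 0.932 for pamidronate + GGOH against the control. A change in Mefv was therefore not detectable at this depth of 14356069 to 18957968 counts per library, and the intervals cover counting error only.

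Aim2 encodes the sensor of DNA in the cytosol (ENSMUSG00000037860, chromosome 1, 173350879 to 173466040, plus strand). Its level was 77.4, 74.02 and 80.4 CPM in the control, 81.5, 90.9 and 90.6 CPM with pamidronate and 105, 98.9 and 92.1 CPM with pamidronate + GGOH. The libraries of the 3 groups did not overlap, but the steps between groups were small. The log2 fold change of pamidronate against the control was 0.18 ± 0.08 (SE, adjusted p = 0.0663), which missed the threshold, and that of pamidronate + GGOH against pamidronate was 0.17 ± 0.08 (SE, adjusted p = 0.105), which missed it too. Pamidronate + GGOH lay above the control by 0.35 ± 0.08 (SE, adjusted p = 0.00285). The first of these differences passed with upper-quartile scaling, at 0.38 with an adjusted p of 0.00148, and without pamidronate replicate 1 (adjusted p = 0.0492). The second passed with a stricter filter on low counts (adjusted p = 0.0462), without control replicate 3 (0.0474) and without pamidronate + GGOH replicate 3 (0.0197).

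Pycard encodes the adaptor ASC (ENSMUSG00000030793, chromosome 7, 127989708 to 127993867, minus strand). Its level was 1.52, 2.24 and 2.41 CPM in the control, 6.91, 8.03 and 8.61 CPM with pamidronate and 8.97, 11.2 and 6.47 CPM with pamidronate + GGOH. Every treated library was above every control library, and the treated groups overlapped each other. The rise with pamidronate was 1.93 ± 0.24 (SE, adjusted p = 4.71e-06) on the log2 scale and that of pamidronate + GGOH over the control was 2.10 ± 0.24 (SE, adjusted p = 1.08e-05). The difference between the treated groups was 0.17 ± 0.21 (SE, adjusted p = 0.524) and was not called. Counts were thus assigned to Pycard in all 9 libraries, at 26 to 40 in the control. An unclassified gene on the opposite strand, Gm45205, shares 485 exon bases with it and had 11 to 109 counts. The strandedness of the libraries is not given in the sources used here, so reads from the shared bases cannot be assigned to one of these genes with certainty.

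Casp1 encodes caspase-1 (ENSMUSG00000025888, chromosome 9, 5298517 to 5307265, plus strand). Its level was 35.6, 31.02 and 25.5 CPM in the control, 10.7, 10.1 and 8.05 CPM with pamidronate and 17.9, 16.9 and 19.7 CPM with pamidronate + GGOH. The groups did not overlap. Casp1 fell with pamidronate by 1.68 ± 0.14 (SE, adjusted p = 1.43e-07) on the log2 scale, rose by 0.92 ± 0.15 (SE, adjusted p = 0.00013) when GGOH was added, and remained lower than the control in that group, at -0.76 ± 0.14 (SE, adjusted p = 0.000413).

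Gsdmd encodes gasdermin D (ENSMUSG00000022575, chromosome 15, 75862339 to 75867404, plus strand). Its level was 38.02, 32.9 and 31.2 CPM in the control, 9.29, 6.51 and 6.19 CPM with pamidronate and 17.1, 17.1 and 22.7 CPM with pamidronate + GGOH. As for Casp1, the groups did not overlap and the pamidronate libraries were lowest. The log2 fold change with pamidronate was -2.21 ± 0.17 (SE, adjusted p = 4.74e-08), that of adding GGOH was 1.37 ± 0.17 (SE, adjusted p = 1.46e-05), and that of pamidronate + GGOH against the control was -0.84 ± 0.15 (SE, adjusted p = 0.000453).

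Il18 encodes interleukin-18, which is stored as a precursor that caspase-1 cuts (ENSMUSG00000039217, chromosome 9, 50554827 to 50581840, plus strand). Its level was 11.9, 10.6 and 12.4 CPM in the control, 5.32, 4.997 and 4.03 CPM with pamidronate and 7.15, 8.47 and 9.78 CPM with pamidronate + GGOH, with no overlap between groups. It fell with pamidronate, at -1.28 ± 0.17 (SE, adjusted p = 8.93e-06) on the log2 scale, and was higher when GGOH was added, at 0.83 ± 0.17 (SE, adjusted p = 0.00108). The remaining difference of pamidronate + GGOH from the control was -0.46 ± 0.16 (SE, adjusted p = 0.0265). That call was lost with upper-quartile scaling, at -0.26 with an adjusted p of 0.175, and without control replicate 3 (adjusted p = 0.0688), without pamidronate + GGOH replicate 1 (0.106) and without pamidronate + GGOH replicate 2 (0.0662).

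Il1a encodes interleukin-1α, which is active without cleavage by caspase-1 (ENSMUSG00000027399, chromosome 2, 129299610 to 129309972, minus strand). Its level was 0.409, 1.06 and 0.309 CPM in the control, 4.09, 4.36 and 3.65 CPM with pamidronate and 2.61, 2.37 and 1.998 CPM with pamidronate + GGOH. The 3 groups did not overlap, and the pamidronate libraries were highest. The control values rest on 7, 19 and 5 counts. Il1a rose with pamidronate by 2.73 ± 0.34 (SE, adjusted p = 5.68e-06) and was also above the control with pamidronate + GGOH, at 1.93 ± 0.36 (SE, adjusted p = 0.000468). Between the treated groups the log2 fold change was -0.80 ± 0.29 (SE, adjusted p = 0.0318). This last call was lost when pamidronate replicate 1, pamidronate replicate 2 or any 1 of the pamidronate + GGOH libraries was left out, with adjusted p from 0.0505 to 0.105. The opposite-strand transcript Gm14023 shares 222 exon bases with Il1a and had 21 to 49 counts, more than Il1a had in any control library.

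Il1b encodes interleukin-1β (ENSMUSG00000027398, chromosome 2, 129364570 to 129371139, minus strand). It had 4, 2 and 3 counts in the control libraries, 16, 15 and 6 with pamidronate and 13, 8 and 11 with pamidronate + GGOH, which is 0.234, 0.112 and 0.185 CPM, 0.978, 0.949 and 0.372 CPM and 0.738, 0.498 and 0.578 CPM. The treated libraries all lay above the control, and they overlapped each other because pamidronate replicate 3 was low. The log2 fold change was 2.07 ± 0.56 (SE, adjusted p = 0.00419) for pamidronate and 1.74 ± 0.57 (SE, adjusted p = 0.0196) for pamidronate + GGOH, both against the control. The second of these calls was lost without control replicate 2 (adjusted p = 0.0833) and without pamidronate + GGOH replicate 1 (0.0696). Between the treated groups the difference was -0.33 ± 0.46 (SE, adjusted p = 0.57) and was not called. Its antisense transcript Il1bos shares 45 exon bases and had 0 to 4 counts.

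Il1rn encodes the interleukin-1 receptor antagonist (ENSMUSG00000026981, chromosome 2, 24336853 to 24351494, plus strand). Its level was 35.04, 46.6 and 59.7 CPM in the control, 357, 387 and 241 CPM with pamidronate and 544, 526 and 516 CPM with pamidronate + GGOH. The groups did not overlap, and unlike the genes that GGOH moved back towards the control, Il1rn was highest with GGOH. It rose 6.97-fold with pamidronate, which is 2.80 ± 0.22 (SE, adjusted p = 1.56e-06) on the log2 scale, and was 11.2-fold above the control with pamidronate + GGOH, at 3.49 ± 0.22 (SE, adjusted p = 3.41e-06). The step from pamidronate to pamidronate + GGOH was 0.69 ± 0.20 (SE, adjusted p = 0.0174), a call lost without pamidronate + GGOH replicate 3 (adjusted p = 0.0603).

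**Figure D2:**
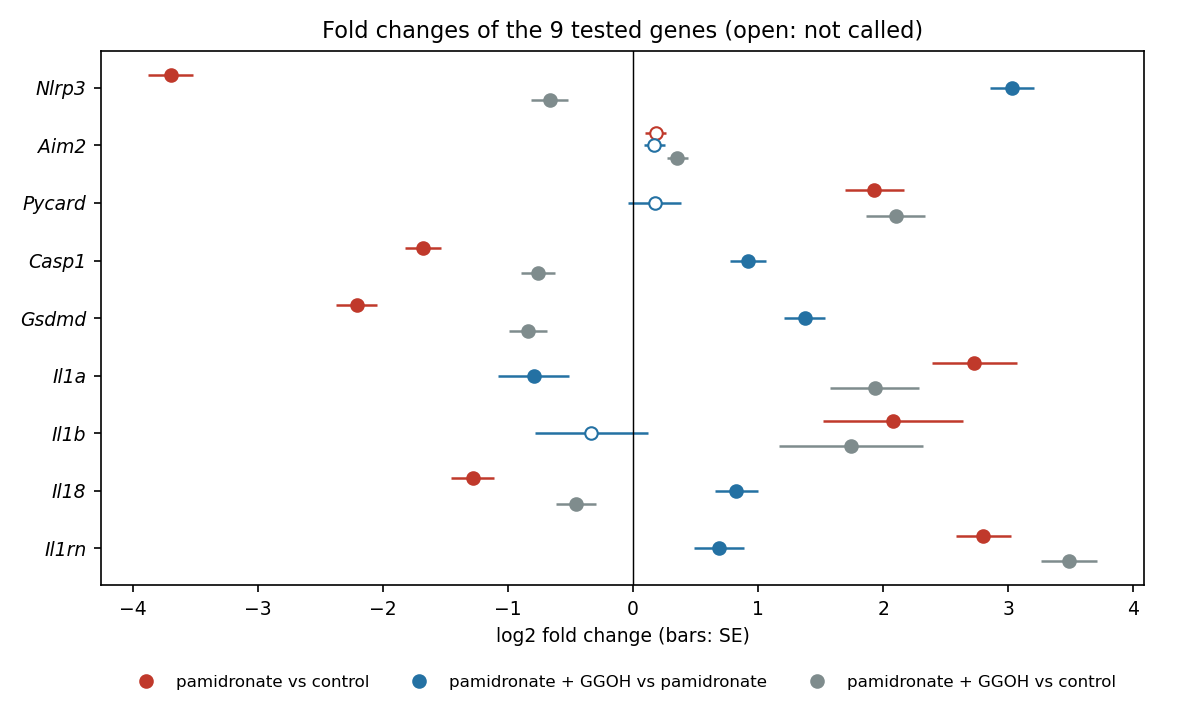
Log2 fold changes of the 9 genes tested (x axis) with their SE as bars, in red for pamidronate against control, blue for pamidronate + GGOH against pamidronate and grey for pamidronate + GGOH against control; open points were not called. Nlrp3, Casp1, Gsdmd and Il18 lie to the left in red and to the right in blue, with grey values between -0.84 and -0.46.

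Counted together without Mefv, which was not tested, 8 of the 9 tested members were called between pamidronate and the control, 4 higher and 4 lower. Of all 15963 tested genes 69.2% were called (36.2% higher and 32.9% lower). Adding GGOH to pamidronate gave 6 calls among these 9, 5 higher and 1 lower, against 48.8% of all genes (25.2% higher and 23.6% lower). Pamidronate + GGOH differed from the control in all 9 tested members, 5 higher and 4 lower, against 52.4% of all genes (26.3% higher and 26% lower). The number of changed genes is thus not a result about this group, since changes were common across the transcriptome. CPM values of the compared groups did not overlap in 73.4%, 59.6% and 58.2% of all genes in these comparisons. Il1a and Il1b passed the filter only through the treated groups, since 1 and 0 control libraries reached its 0.601 CPM. Neither could therefore have been seen to fall below the control. The comparisons share groups: a low pamidronate library lowers the first comparison and raises the second, so opposite signs in them are not separate evidence.

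To let the start regions of these genes be compared, the bases before the start of 6 genes are shown, as 5′ to 3′ on the gene's strand. They are 3 genes that fell with pamidronate and rose with added GGOH, then 3 that rose with pamidronate. Capitals mark matches to the motifs that were searched. Sequences are from RefSeq on GRCm38.p6, the C57BL/6J reference and not the BALB/c-derived RAW 264.7 genome.
Nlrp3, chr11:59541319-59541567, plus strand: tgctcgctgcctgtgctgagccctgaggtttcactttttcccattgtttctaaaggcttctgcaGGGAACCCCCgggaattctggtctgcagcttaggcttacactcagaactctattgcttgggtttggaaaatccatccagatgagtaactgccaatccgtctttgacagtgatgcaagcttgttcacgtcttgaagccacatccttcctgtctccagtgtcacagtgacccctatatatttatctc
Casp1, chr9:5298267-5298516, plus strand: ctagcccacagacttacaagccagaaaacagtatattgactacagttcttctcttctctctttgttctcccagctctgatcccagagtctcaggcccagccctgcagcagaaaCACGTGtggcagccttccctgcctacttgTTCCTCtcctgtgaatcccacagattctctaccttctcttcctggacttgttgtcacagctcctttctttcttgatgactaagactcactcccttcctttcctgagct
Il18, chr9:50554450-50554699, plus strand: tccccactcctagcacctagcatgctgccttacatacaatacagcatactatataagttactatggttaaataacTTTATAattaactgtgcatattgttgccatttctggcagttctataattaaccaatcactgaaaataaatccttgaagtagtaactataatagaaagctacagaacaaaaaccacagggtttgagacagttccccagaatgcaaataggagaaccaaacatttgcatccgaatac
Il1rn, chr2:24336610-24336852, plus strand: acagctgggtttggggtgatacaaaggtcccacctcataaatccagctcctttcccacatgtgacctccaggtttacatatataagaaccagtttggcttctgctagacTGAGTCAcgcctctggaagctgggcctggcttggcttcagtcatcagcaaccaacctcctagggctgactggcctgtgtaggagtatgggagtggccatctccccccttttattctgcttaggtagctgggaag
Il1a, chr2:129309973-129310222, minus strand: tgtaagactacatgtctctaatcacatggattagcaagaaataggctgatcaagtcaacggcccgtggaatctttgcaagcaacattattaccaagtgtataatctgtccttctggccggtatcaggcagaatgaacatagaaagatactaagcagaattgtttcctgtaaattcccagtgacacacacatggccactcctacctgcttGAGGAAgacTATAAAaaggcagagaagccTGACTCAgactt
Il1b, chr2:129371140-129371389, minus strand: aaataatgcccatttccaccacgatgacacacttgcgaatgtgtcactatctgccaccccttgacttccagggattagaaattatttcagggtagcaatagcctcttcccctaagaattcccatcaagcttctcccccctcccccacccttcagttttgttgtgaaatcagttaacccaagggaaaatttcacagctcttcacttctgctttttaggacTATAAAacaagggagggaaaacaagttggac

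The motifs were searched on both strands by their letters in the 250 bases before a start, less any base inside the gene's first annotated exon. Of the 10 genes, 9 matched an entry. The matches in the printed windows did not overlap each other. The Nlrp3 window held 1 match to the NF-κB consensus, which 7.25% of 32851 mouse promoter windows of 250 bases hold. Nlrp3 has a second RefSeq start, with its window at chr11:59542436-59542685, which held 3 matches to the PU.1 core GAGGAA. At least 1 match to that core was found in 23.3% of windows. PU.1 is a transcription factor of myeloid cells. Casp1 held 1 PU.1 core and 1 E-box CACGTG, and 6.02% of windows hold that E-box. In windows not printed, Aim2 held 2 PU.1 cores and Pycard held 1. The printed Il1rn window and the Il1a window each held 1 AP-1 site TGANTCA, found in 6.75% of windows, and Il1a also held a PU.1 core. Il1rn has other RefSeq starts, with windows at chr2:24345041-24345287 and chr2:24345121-24345287, which overlap each other and held no match to any motif searched. The TATA box core TATAAA, found in 12.4% of windows, was matched once in Il18, on the opposite strand, and once each in Il1a and Il1b. No match to the interferon response element, the SREBP site TCACNCCAC or the CArG box was found in the windows of these genes, and 2.98%, 1.05% and 1.47% of windows hold them. These are matches of letters, and no binding was measured.

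On the per-length scale of TPM, in which counts are divided by exon length before scaling, the order of the 10 genes changed between groups. In the control the highest were Aim2 at 50.02 ± 3.76 (SD, n = 3), Casp1 at 46.2 ± 5.36 and Gsdmd at 43.2 ± 2.10 TPM. The libraries of Aim2 and Casp1 overlapped, as did those of Casp1 and Gsdmd. Nlrp3 followed at 36.3 ± 3.82, Il18 at 25.6 ± 2.48 and Il1rn at 19.5 ± 6.003 TPM, and the last of these overlapped Il18. Pycard was at 1.24 ± 0.342, Il1a at 0.685 ± 0.486, Il1b at 0.209 ± 0.0651 and Mefv at 0.0384 ± 0.0379 TPM, and only Pycard and Il1a among these neighbours overlapped.

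With pamidronate the antagonist led, with Il1rn at 147 ± 35.02 (SD, n = 3) and Aim2 at 62.1 ± 2.31 TPM. Casp1 was at 15.9 ± 2.54, Il18 at 11.5 ± 1.80 and Gsdmd at 10.3 ± 2.66 TPM, and Il18 and Gsdmd overlapped. Pycard at 5.12 ± 0.465 and Il1a at 5.08 ± 0.460 TPM overlapped and stood above Nlrp3 at 3.06 ± 0.809 TPM, which had been far above both in the control. Il1b was at 1.000 ± 0.454 and Mefv at 0.110 ± 0.0543 TPM.

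With pamidronate + GGOH, Il1rn reached 272 ± 4.55 (SD, n = 3) and Aim2 80.2 ± 4.27 TPM, without overlap. Casp1 at 34.5 ± 2.70, Gsdmd at 30.5 ± 5.39, Nlrp3 at 28.7 ± 6.39 and Il18 at 23.4 ± 3.96 TPM followed, and each overlapped the next. Pycard was at 6.65 ± 1.82, Il1a at 3.35 ± 0.404, Il1b at 0.901 ± 0.161 and Mefv at 0.0674 ± 0.0591 TPM.

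**Figure D3:**
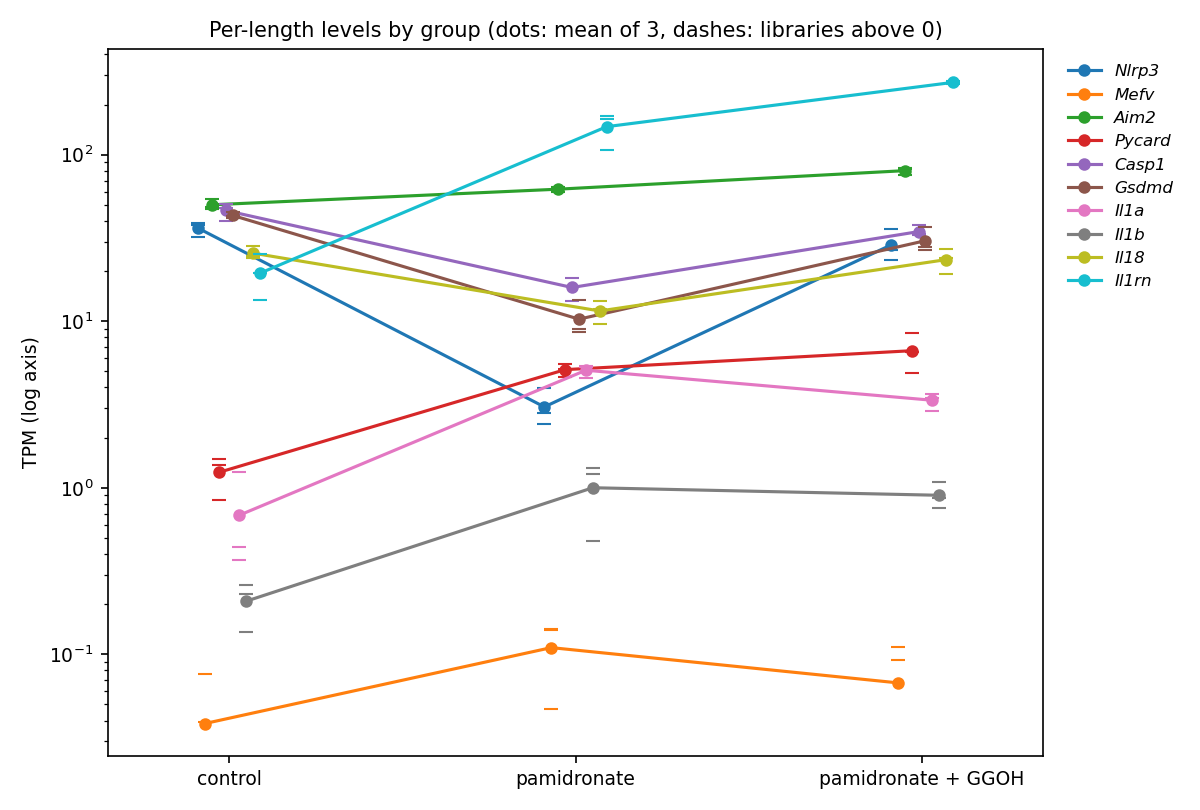
TPM of the 10 genes (log axis) in the 3 groups, with dots at the mean of 3 libraries, lines joining the means of one gene, and dashes at single libraries above 0. Il1rn moves from sixth place in the control to first in both treated groups, and Nlrp3 drops below Pycard and Il1a with pamidronate and stands above them again with pamidronate + GGOH.

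The ratio of the antagonist's RNA to that of the agonist interleukin-1β was compared as Il1rn TPM over Il1b TPM. It was 51.7, 143 and 111 in the control libraries, 126, 141 and 224 with pamidronate, and 254, 363 and 307 with pamidronate + GGOH. The control and pamidronate libraries overlapped, and all 3 pamidronate + GGOH libraries were above the others. With 0.1 TPM added to both genes, the mean log2 ratio was 5.96 ± 0.63 (SD, n = 3) for controls, 7.14 ± 0.35 for pamidronate and 8.10 ± 0.23 for pamidronate + GGOH. The difference was 1.18 for pamidronate against the control and 0.96 for pamidronate + GGOH against pamidronate. Both had p = 0.1 in a two-sided exact permutation test, the smallest that 3 against 3 libraries allow. The first difference depended on the added amount, since it was 0.81 with 0.01 TPM (exact permutation p = 0.2) and 2.17 with 1 TPM. Il1b had at most 4 counts in a control library, which limits the precision of the ratio there. The other agonist gene, Il1a, is not part of this ratio. Its mean was above that of Il1b in every group, at 0.685 against 0.209 TPM in the control. With pamidronate it was 5.08 against 1.000 TPM, and with pamidronate + GGOH 3.35 against 0.901 TPM. A ratio to both agonists together was not tested, so these values do not describe it.

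**Figure D4:**
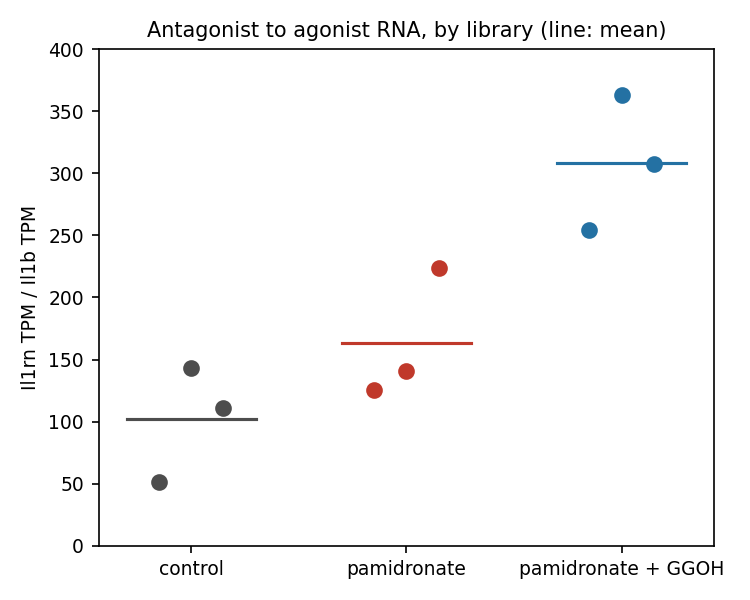
Ratio of Il1rn TPM to Il1b TPM (y axis, from 0) in each library of the 3 groups, with a line at the mean. The pamidronate + GGOH libraries lie from 254 to 363, above the highest pamidronate library at 224, and the control libraries lie from 51.7 to 143.

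In a list of other inflammasome and related sensors, most genes fell with pamidronate, and most rose when GGOH was added. This list and the later ones were chosen with earlier results of these data known, so their counts and medians are descriptions only. Of 21 genes tested in it, 18 fell and 2 rose with pamidronate, where 32.9% of all tested genes were lower and 36.2% higher. Some genes of the list encode proteases or regulators and not sensors. The 21 genes had a median log2 fold change of -1.11, against 0.08 over all genes tested. With GGOH added to pamidronate, 15 rose, 0 fell and 6 were not called, where 25.2% of all genes were higher and 23.6% lower, and the median was 0.98 against 0.00 over all genes. Against the control, 5 were higher and 5 lower with pamidronate + GGOH, where 26.3% of all tested genes were higher and 26% lower. The median was 0.03 against 0.02 over all genes, so these counts are not a result about the list. The genes called lower numbered 3 without pamidronate + GGOH replicate 2 and 8 without replicate 3. Nlrp1b, a sensor of bacterial protease activity, was at 27.5 ± 1.86 (SD, n = 3) CPM in the control, 3.87 ± 0.230 CPM with pamidronate and 18.7 ± 3.80 CPM with pamidronate + GGOH. Its log2 fold changes were -2.83 ± 0.16 (SE, adjusted p = 3.90e-09) with pamidronate and 2.27 ± 0.16 (SE, adjusted p = 1.34e-07) with added GGOH. Naip6, one of the receptors for bacterial flagellin and secretion needles, went from 30.00 to 7.09 and 25.3 CPM. Nlrc4, the partner of those receptors, went from 7.88 to 3.35 and 10.7 CPM. Both fell with pamidronate and rose with added GGOH. Nod1, a receptor for bacterial cell wall fragments, fell with pamidronate (-2.74 ± 0.33 SE, adjusted p = 6.51e-06). Nlrc3, described as a restraint on innate signalling, was 1 of the 2 that rose (0.50 ± 0.13 SE, adjusted p = 0.0026), and it rose further with GGOH (0.60 ± 0.12 SE, adjusted p = 0.00094).

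The regulators and other pore proteins were mixed. Of 21 tested, 5 rose and 13 fell with pamidronate, against 36.2% higher and 32.9% lower over all genes, with a median of -0.56 against 0.08. When GGOH was added, 10 rose and 4 fell, against 25.2% and 23.6% of all genes, with a median of 0.29 against 0.00. P2rx7, the ATP-gated channel whose opening lets potassium leave the cell, rose from 64.8 ± 2.06 (SD, n = 3) to 489.9 ± 23.9 CPM with pamidronate, by 2.92 ± 0.20 (SE, adjusted p = 2.83e-07) on the log2 scale. With pamidronate + GGOH it was at 379.9 ± 114 CPM, a step of -0.37 ± 0.18 (SE, adjusted p = 0.119) that was not called. That step was called without the filter on low counts (-0.33, adjusted p = 0.00502) and without pamidronate + GGOH replicate 1 (-0.49, adjusted p = 0.0381). Nek7, the kinase that binds NLRP3 during assembly, fell from 162 to 82.2 CPM (-0.98 ± 0.09 SE, adjusted p = 3.67e-07), and with GGOH added it was at 85.9 CPM, a difference of 0.07 ± 0.09 (SE, adjusted p = 0.588) that was not called. Mlkl, the pore protein of necroptosis, fell by 1.29 ± 0.19 (SE, adjusted p = 2.09e-05) with pamidronate and rose by 1.94 ± 0.18 (SE, adjusted p = 1.64e-06) with added GGOH, to above the control (0.65 ± 0.17 SE, adjusted p = 0.005). Pstpip2, a relative of the pyrin partner Pstpip1, fell (-1.89 ± 0.14 SE, adjusted p = 7.24e-08) and rose (1.28 ± 0.14 SE, adjusted p = 8.08e-06). Gsdme, a gasdermin cut by caspase-3, went the opposite way to Gsdmd, at 0.50 ± 0.11 (SE, adjusted p = 0.000673) with pamidronate and -0.56 ± 0.11 (SE, adjusted p = 0.000562) with added GGOH. Pstpip1 and Casp4, which encodes the caspase that senses lipopolysaccharide in the cytosol, were not called between pamidronate and the control, at -0.14 ± 0.14 (SE, adjusted p = 0.367) and -0.02 ± 0.12 (SE, adjusted p = 0.901), and their sign changed with upper-quartile scaling, to 0.05 and 0.18.

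Of 27 tested genes linked to RhoA and the kinases and 14-3-3 proteins that hold pyrin inactive, 6 rose and 18 fell with pamidronate, where 36.2% of all genes rose and 32.9% fell, and the median was -0.63 against 0.08 over all genes. With GGOH added 13 rose and 7 fell, where 25.2% and 23.6% of all genes did, and the median was 0.30 against 0.00. The list includes Trim30a, which belongs with the regulators and is counted there too. Rhoa itself fell from 595 ± 22.4 (SD, n = 3) to 323 ± 37.4 CPM (-0.88 ± 0.12 SE, adjusted p = 1.15e-05). With pamidronate + GGOH it was at 367 ± 59.4 CPM, a step of 0.18 ± 0.12 (SE, adjusted p = 0.212) that was not called, though it was called without pamidronate + GGOH replicate 1 (0.34, adjusted p = 0.0298). Rhob, a close relative of Rhoa, rose with pamidronate (1.29 ± 0.11 SE, adjusted p = 8.52e-08) and fell with added GGOH (-0.64 ± 0.10 SE, adjusted p = 0.000134). Prkca, a protein kinase C, fell from 16.9 to 1.41 CPM (-3.58 ± 0.23 SE, adjusted p = 1.02e-08) and rose to 8.31 CPM (2.56 ± 0.23 SE, adjusted p = 1.18e-06). Ywhab, a 14-3-3 protein, fell from 247 ± 78.6 (SD, n = 3) to 43.3 ± 2.30 CPM and stood at 115 ± 35.1 CPM with pamidronate + GGOH, with log2 fold changes of -2.51 ± 0.31 (SE, adjusted p = 0.000177) and 1.41 ± 0.30 (SE, adjusted p = 0.00611). These are RNA levels, and neither RhoA activity nor its lipid was measured.

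Among the receptors and binding proteins of the interleukin-1 family, 6 of 11 genes could be tested, of which 1 rose and 4 fell with pamidronate, and 4 rose and 0 fell with GGOH added. Over all tested genes the shares were 36.2% higher and 32.9% lower with pamidronate, and 25.2% higher and 23.6% lower with added GGOH. The medians of the 6 were -1.62 and 1.27, against 0.08 and 0.00 over all genes. Il18rap, a subunit of the interleukin-18 receptor, went from 7.62 ± 0.888 (SD, n = 3) to 0.330 ± 0.194 and 6.14 ± 0.901 CPM, with log2 fold changes of -4.50 ± 0.30 (SE, adjusted p = 1.70e-08) and 4.19 ± 0.31 (SE, adjusted p = 2.06e-07). The size of both rests on 16 counts summed over the pamidronate libraries. None of these libraries reached the filter's 0.601 CPM, so Il18rap passed it through the other groups. Il1rl1, the receptor for interleukin-33, fell (-3.26 ± 0.21 SE, adjusted p = 1.39e-08) and rose (2.31 ± 0.22 SE, adjusted p = 1.68e-06), and so did Il1rap, the co-receptor that interleukin-1 signalling needs (-1.97 ± 0.12 SE, adjusted p = 1.01e-08 and 1.32 ± 0.12 SE, adjusted p = 1.64e-06). Il18bp, the decoy that binds interleukin-18, was the gene that rose with pamidronate (1.35 ± 0.18 SE, adjusted p = 1.22e-05). Il1r1, the signalling receptor for interleukin-1, was near the limit of detection, with 9, 21 and 30 counts summed over the control, pamidronate and pamidronate + GGOH libraries, and was not called in any comparison. Without pamidronate + GGOH replicate 3 it passed against the control (2.03, adjusted p = 0.0464).

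Of the other ligands of the family, 1 of 6 passed the filter. This was Il1f9, the gene of interleukin-36γ, with 3, 3 and 0 counts in the control libraries, 28, 19 and 22 with pamidronate and 130, 118 and 85 with pamidronate + GGOH. The groups did not overlap, and like Il1rn, near which it lies on chromosome 2, it was highest with GGOH. Its log2 fold change was 3.53 ± 0.53 (SE, adjusted p = 3.26e-05) with pamidronate and 2.16 ± 0.30 (SE, adjusted p = 4.79e-05) when GGOH was added. Like Il1a and Il1b it passed the filter through the treated groups.

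Genes of signalling downstream of the receptor went both ways. Of 22 tested, 9 rose and 7 fell with pamidronate, with a median of 0.16, and 6 rose and 6 fell with GGOH added, with a median of -0.14. The 16 and 12 genes called are near the background, since 69.2% and 48.8% of all tested genes were called in these comparisons, so the counts are not a result about this list. With upper-quartile scaling 14 rose with pamidronate. Myd88, the adaptor of the receptor, fell from 47.4 ± 9.69 (SD, n = 3) to 13.3 ± 2.05 CPM (-1.83 ± 0.17 SE, adjusted p = 9.60e-07) and rose with GGOH to 27.04 ± 4.90 CPM (1.03 ± 0.17 SE, adjusted p = 0.000349). Irak3, which restrains the pathway, fell by 1.54 ± 0.19 (SE, adjusted p = 1.24e-05) with pamidronate and rose by 0.80 ± 0.19 (SE, adjusted p = 0.00425) with GGOH. Irak2, a kinase of the pathway, moved the other way, at 1.62 ± 0.15 (SE, adjusted p = 7.69e-07) and -1.32 ± 0.15 (SE, adjusted p = 1.41e-05). Tollip, an inhibitor of it, rose and fell likewise (1.16 ± 0.09 SE, adjusted p = 6.86e-08 and -0.76 ± 0.09 SE, adjusted p = 1.20e-05). Tnfaip3, which encodes the inhibitor A20, rose from 26.9 ± 4.25 to 97.3 ± 9.19 CPM (1.85 ± 0.17 SE, adjusted p = 2.03e-06).

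**Figure D5:**
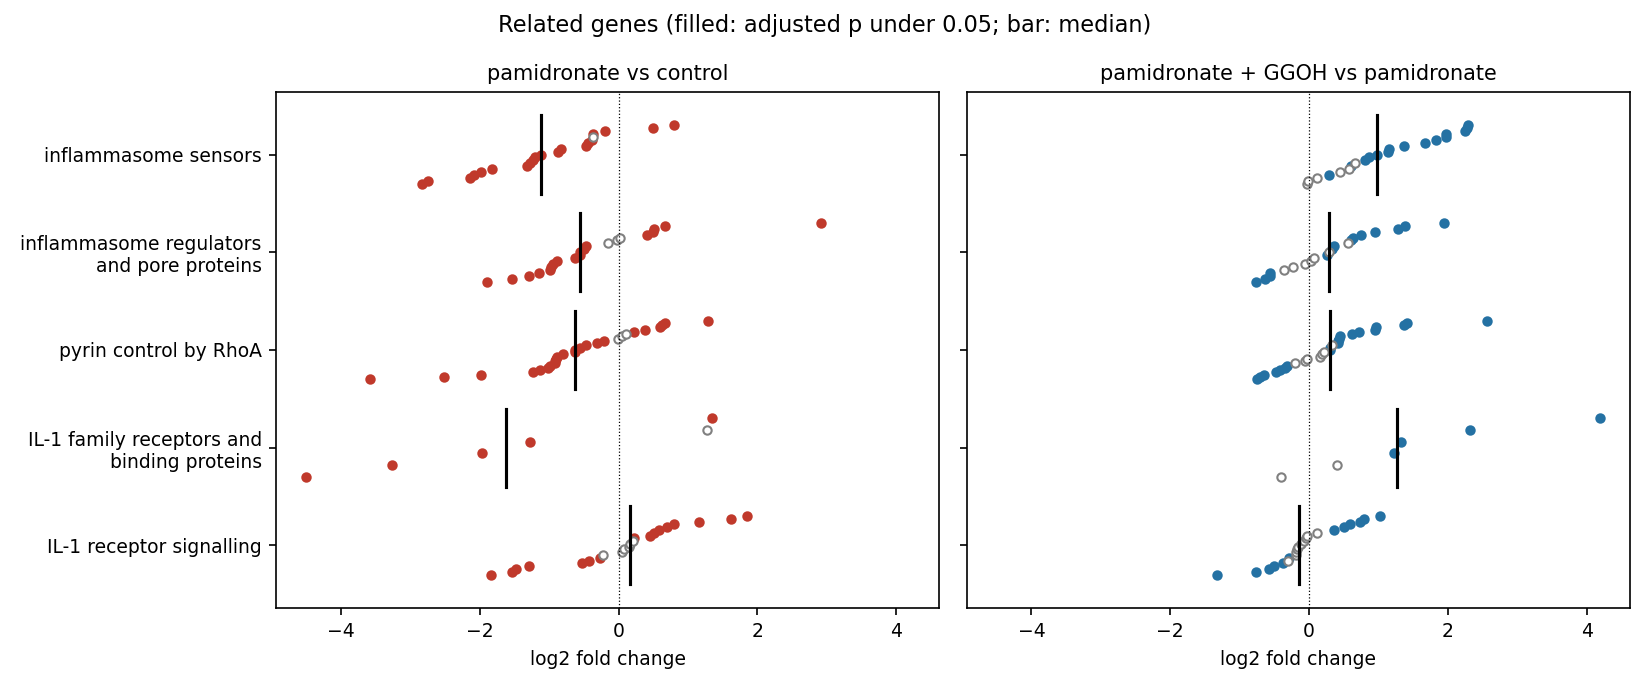
Log2 fold changes (x axis) of the tested genes in 5 lists of related genes, for pamidronate against control (left) and pamidronate + GGOH against pamidronate (right); each point is a gene, filled where called, and the bar is the list's median. The median of the sensor list is -1.11 on the left and 0.98 on the right. The panels share the pamidronate libraries.

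Across the 9 libraries, the genes whose log2 CPM followed Nlrp3 most closely were Coq2 (Pearson r = 0.998), Ncoa7 (0.998) and B3gnt3 (0.997). For Il1rn they were Alg12 (0.993), Gpr17 (0.991) and Pde6g (0.989), and for Il1b Bambi (0.962), Prss56 (0.955) and Hpx (0.951), all 3 of which had mean levels below 1 CPM in every group. Among the 10 genes themselves, Nlrp3 had r = 0.940 with Casp1, 0.970 with Gsdmd and 0.965 with Il18. With 3 groups and 9 libraries, such values mostly repeat the order of the group means, so they are descriptions only.

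Other measures moved with the groups as well. Of 10 macrophage markers, 9 fell with pamidronate and 0 rose, where 32.9% of all tested genes fell and 36.2% rose, and their summed level ran from 15807 to 20512 CPM in the control, from 4849 to 6838 with pamidronate and from 6878 to 9917 with pamidronate + GGOH. Osteoclast markers summed to 349 to 384, 397 to 547 and 387 to 419 CPM. Markers of B cells summed to 53.1 to 69.9, 15.6 to 21.9 and 22.1 to 27.4 CPM, and those of endothelial cells to 5.90 to 7.50, 13.9 to 14.7 and 27.5 to 56.3 CPM. Fibroblast markers summed to 9.13 to 11.9, 1.52 to 2.29 and 3.05 to 3.80 CPM. Each of the lists of T cell, dendritic cell, neutrophil and epithelial markers summed to less than 12 CPM in every library, and no marker in any list was at 0 in all 9 libraries. Mitochondrial genes took 10.4% to 10.8% of counts in the control, 3.71% to 5.19% with pamidronate and 5.43% to 6.31% with pamidronate + GGOH, and the nuclear RNA Malat1 took 1.35% to 1.66%, 4.53% to 4.99% and 2.39% to 2.82%. A sum can rest on few genes of its list. Of 6 B cell markers 2 were tested, and with pamidronate 1 was called lower and 1 was not called. The same held for 2 tested of 8 fibroblast markers, so these sums do not show the presence of either cell type. The summed macrophage, B cell and fibroblast markers and the mitochondrial share follow the order of Nlrp3, Casp1, Gsdmd and Il18 across the groups, and their part in those results was not tested.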

How the data were processed

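RNA of 9 libraries (3 per group) had been prepared from 300 ng with ribosomal RNA removal, per the labels' protocols. The submitters' processing notes name Trimmomatic 0.36, GRCm38 and DESeq; aligner, counter and strandedness were not given in the sources used here. Deposited by the authors were raw counts for 49315 genes and TPM values, which equal counts over exon length scaled per library. The controls' titles call them biological replicates. Symbols came from the combined table because 1 per-library file had 26 symbols turned into dates. A percentage in the GGOH library names is unexplained.

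Counts were filtered with filterByExpr (15963 genes left), scaled by TMM and fitted for all 9 libraries in 1 model of group means with edgeR 4.0.16 (quasi-likelihood, R 4.3.3). The common biological coefficient of variation was 0.127, with 6 residual degrees of freedom. On simulated pamidronate and control counts of 15963 genes, 50 genes were changed at each fold. The test recovered 50% of genes changed 1.5-fold, 68% at 2-fold, 90% at 4-fold and 98% at 8-fold, with 10 unchanged genes called. In the data 69.2% of tested genes were called in this comparison. The adjustment of p therefore works on a different mix of genes, and these shares do not give the power of the test on the data. The Il1rn to Il1b ratio used TPM with 0.1 added and an exact permutation test (scipy 1.17.1). Libraries of one group differed by more than counting error (chi-square per degree of freedom 4.00 to 37.2).

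The members and gene lists were chosen with earlier results of these data known. Named genes were all 10 members, up to 4 called genes per list and comparison with the largest change and at least 1 CPM, a fixed set of 12 pathway genes, and the 3 genes most like Nlrp3, Il1b and Il1rn. Not all of them are named. Il36 genes were matched by their older symbols, and Itgam was left out of the macrophage markers because 2 genes carry its symbol. The analysis was repeated with RLE or upper-quartile factors, without the filter or with a stricter one, by DESeq2 1.42.0 and by limma-voom (limma 3.58.1). It was also repeated on 2 groups alone, with a replicate block, at an adjusted p under 0.01, without each library in turn and with other pseudocounts.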

Additional observations from a re-analysis of the deposited data

How the results depend on the processing

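For the 9 tested genes, 437 fold changes in the alternative fits kept their direction and side of the threshold, 5 became called, 12 lost their call and 0 changed sign. The calls that changed in these fits stand beside the genes above. These numbers leave out the stricter threshold, an adjusted p under 0.01. There Il1a (adjusted p = 0.0318) and Il1rn (0.0174) lost their calls for pamidronate + GGOH against pamidronate. Il1b (0.0196) and Il18 (0.0265) lost theirs for pamidronate + GGOH against control. Il1b could not be tested in every alternative, since a stricter filter or a fit of 2 groups left it out in some. Leaving out 1 library at a time gave 8 to 9, 5 to 7 and 7 to 9 called members (8, 6 and 9 with all libraries) for pamidronate against control, pamidronate + GGOH against pamidronate and pamidronate + GGOH against control. For all genes it gave 10207 to 11433, 6590 to 8215 and 6923 to 8932 calls (11042, 7784 and 8359 with all libraries). The difference in log2 Il1rn to Il1b ratio ran from 0.82 to 1.39 and from 0.82 to 1.15, with exact permutation p = 0.2 throughout, the smallest for 2 against 3. Whether the replicate numbers pair the libraries is not settled. Same-numbered deviations correlated from -0.224 to 0.204, and not every library correlated best with its own number. With 3 libraries per group this check cannot exclude a pairing. With a replicate block 8, 6 and 9 members were called, and 10980, 7622 and 8275 genes.

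Upper-quartile factors moved the median log2 fold change of all genes from 0.08 to 0.28 for pamidronate and from 0.02 to 0.23 for pamidronate + GGOH, both against the control. In the second, calls went from 4202 higher and 4157 lower to 5834 higher and 2600 lower, sensors called lower from 5 to 3, regulators called higher from 3 to 7, and the RhoA list from 2 higher and 17 lower to 5 and 11. Receptor signalling genes called lower went from 8 to 4. Genes that were not called changed sign in a few fits. With upper-quartile factors, Casp4 was at 0.178 and Pstpip1 at 0.0473 for pamidronate against control, and Gsdme at 0.148 for pamidronate + GGOH against control. Leaving out 1 library at a time gave -0.106 to 0.0363 for Casp4 (pamidronate against control) and -0.112 to 0.0145 for Gsdme (pamidronate + GGOH against control). Between the treated groups it gave -0.187 to 0.0804 for Pstpip1, -0.00904 to 0.156 for Nek7 and -0.0288 to 1.37 for Il1r1.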

Other observations

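The genes next to the members were not changed in one common way. In the interleukin-1 cluster around Il1rn on chromosome 2, Il1f8 and Il1f10 had 0 counts in all 9 libraries, Il1f6 had 0 to 1 and Il1f5, the gene of the interleukin-36 receptor antagonist, had 0 to 4. Psd4, the gene after Il1rn, had 4, 11 and 6 counts in the control, 27, 24 and 22 with pamidronate and 42, 34 and 18 with pamidronate + GGOH. Ckap2l, a gene of the mitotic spindle beside Il1a, had 260, 776 and 970 counts in the control, 251, 287 and 199 with pamidronate and 189, 304 and 529 with pamidronate + GGOH, so that 1 control library overlapped the pamidronate libraries.

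Beside Casp1 on chromosome 9, the inflammatory caspase gene Casp12 had 0 to 2 counts per library. Casp4, on the same strand and next to Casp1, had 232, 218 and 196 counts in the control, 205, 181 and 217 with pamidronate and 278, 248 and 303 with pamidronate + GGOH. Its CPM in the pamidronate libraries overlapped the control, where the CPM of Casp1 did not.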
